A study of Mus musculus with 3 samples.

Results

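Long intergenic noncoding RNAs (lincRNAs) are transcripts from genes that are classed as lying between protein-coding genes and have no annotated reading frame. Several of them build or load nuclear bodies, carry small nucleolar RNAs (snoRNAs) or microRNAs in their introns, bind RNA-binding proteins in the cytoplasm, or act on a neighbouring gene. Many others are known only from their annotation. The genes described here were selected on measured values: autosomal genes of type lincRNA in GENCODE release M21 whose mean level was at least 5 TPM, without the imprinted genes H19, Meg3, Rian and Mirg. TPM is the number of transcripts of a gene per 1000000 transcripts of a library, so that long and short genes can be set on 1 scale. The rule was met by 90 of the 4977 autosomal lincRNA genes listed, of which 2475 had a TPM above 0 in at least 1 line, out of 35562 genes of all types. Meg3 and Mirg reached the level and were left out by name, and 1 further lincRNA gene, Ftx, was left out because it is X-linked.

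The RNA came from 3 lines of myoblasts, numbered 66, 67 and 72, with 1 library each. Myoblasts are the dividing progeny that satellite cells, the stem cells of muscle, give in culture. The lines carry the genotype Dmdmdx; Pax7-nGFP, in which the mdx mutation of the dystrophin gene was edited by CRISPR/Cas9 in induced pluripotent stem cells and the Pax7-nGFP transgene marks satellite cells and myoblasts. The cells were sorted for Pax7 from muscle of mouse-mouse chimeras several weeks after birth, whose host blastocysts carried Pax7-Cre/ERT2 and Rosa26-lsl-DTA, a toxin gene that tamoxifen switches on in Pax7-expressing host cells. The labels do not say which lines came from tamoxifen-injected chimeras or whether any lines came from the same animal. The lines therefore form 1 condition with n = 3, no comparison between conditions could be made, and every value below is a description with its spread over the lines. Markers of the myoblast fate were high in all lines (Myod1, a master regulator of myogenesis, at 791, 702 and 579 TPM in lines 66, 67 and 72). The 3 immune, 3 endothelial and 4 pluripotent markers stayed below 5 TPM, with Cd68, a macrophage marker, the highest of them at 3.90, 2.92 and 4.23 TPM. Of 7 fibroblast markers, only Col1a2, a collagen chain, had a mean of at least 5 TPM (7.47, 28.3 and 37.0 TPM, a ratio of 4.49 and lowest in line 66). Lum and Dpt were listed at 0 in every line, and Col1a1, Pdgfra and Dcn, all below 1 TPM, were highest in line 66. Myog, which marks myoblasts that start to differentiate, stood at 168, 222 and 310 TPM. In RNA from a whole culture, fewer cells that express a gene and less RNA of it per cell cannot be told apart. The depth was 73274315, 66972426 and 70272367 estimated counts.

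The 90 lincRNA genes were a small share of the transcriptome. They held 0.269, 0.302 and 0.293% of the TPM in lines 66, 67 and 72, a mean of 0.288% ± 0.0171 (SD, n = 3). Their median level was 9.84 TPM, against 29.5 TPM for the 9618 autosomal genes of any type that reached the same mean of 5 TPM. Of the 90, 44 reached 10 TPM, 14 reached 50 TPM and 8 reached 100 TPM, and the 10 highest held 56.0% of the summed TPM. Most were clone-based entries: 75 carried symbols of the Gm, Rik, AC or AL type, 38 had a single annotated transcript, and in 17 the most abundant transcript had 1 exon.

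**Figure D1:**
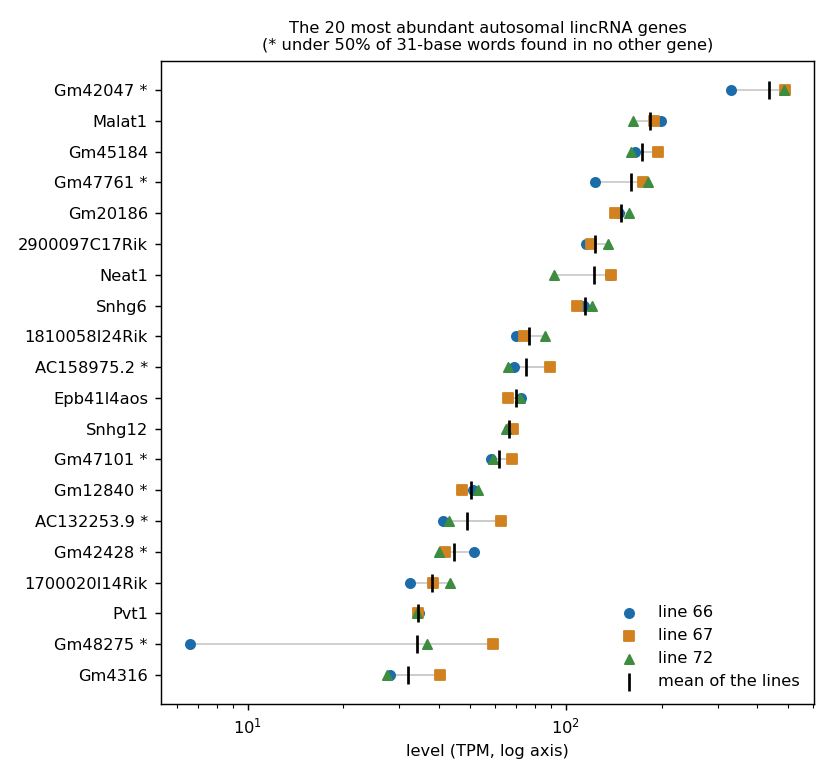
Level of the 20 most abundant autosomal lincRNA genes in each line (TPM, log axis); points are the 3 lines, the vertical tick is their mean, and an asterisk marks genes in which under 50% of the 31-base words occur in no other gene. Gm42047 leads at 330.4 to 488 TPM, Malat1 and Neat1 rank 2nd and 7th, and Gm48275 has the largest ratio between lines of the 20, from 6.60 to 59.2 TPM.

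Malat1 and Neat1, the named markers of abundant lincRNAs, were both present at high levels in each line. Malat1, an RNA that gathers in nuclear speckles next to splicing factors, is encoded at chr19:5795690-5802672 on the minus strand (GRCm38). Its level was 199, 189.7 and 163 TPM in lines 66, 67 and 72, or 184 ± 18.6 TPM (SD, n = 3), which placed it 2nd among the 90 genes and 790th among all autosomal genes that reached 5 TPM. Neat1, the scaffold of paraspeckles, lies close by at chr19:5824708-5845478 on the same strand. Its level was 138, 138 and 91.9 TPM, or 123 ± 26.7 TPM. Both genes were lowest in line 72, and the highest line was 1.22 times the lowest for Malat1 and 1.501 times for Neat1 on the scale of TPM + 1.

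The annotated ends of these RNAs matter for how they enter a library made from poly-A RNA. The mature 3′ ends of Malat1 and of the long form of Neat1 are cut by RNase P and are known to fold U-rich runs with a genome-encoded A-rich run into a triple helix in place of a poly-A tail, whereas the short form of Neat1 is polyadenylated at a conventional signal. The stretches that carry these features are shown from the GENCODE transcripts (5′ to 3′). Capitals in the first 2 mark the longest run that both share, of 16 bases, and the A-rich run. A shorter U-rich run that both also share, tttcttttcctga, is left in lower case. Capitals in the last mark the AATAAA signal.
Malat1-201, bases 6604 to 6723: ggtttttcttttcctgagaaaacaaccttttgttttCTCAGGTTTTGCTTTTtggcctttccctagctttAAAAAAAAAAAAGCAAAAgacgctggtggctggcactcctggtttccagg
Neat1-201, bases 20672 to 20771: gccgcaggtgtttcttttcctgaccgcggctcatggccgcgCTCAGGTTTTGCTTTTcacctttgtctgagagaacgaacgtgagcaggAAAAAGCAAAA
Neat1-202, bases 2905 to 3004: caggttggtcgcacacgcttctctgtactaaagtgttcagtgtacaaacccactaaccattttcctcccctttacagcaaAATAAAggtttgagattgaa
The annotation of Malat1-201 runs for 298 bases beyond its run of 12 A bases, while that of Neat1-201 stops at the A-rich run. The U-rich part of the 16 bases alone, TTTTGCTTTT, occurred in 53 of the 3986 transcripts of autosomal lincRNA genes with a TPM above 0 (1.33%, transcript strand only). In 2 of them it was followed within 100 bases by AAAAAGCAAAA, and these were Malat1-201 and Neat1-201. Both elements were taken from these 2 transcripts, so their own match was fixed in advance. The search shows only that no other transcript searched held the pair. AATAAA stood in the last 50 bases of the most abundant transcript of 34 of the 90 genes (37.8%) and of 880 of the 2475 lincRNA genes (35.6%).

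The transcript split of the 2 genes was alike in every line. Neat1-202, the short form of 3004 bases, held 95.8, 96.3 and 96.4% of the Neat1 TPM in lines 66, 67 and 72. Neat1-201, the long form of 20771 bases that paraspeckles are built on, held 2.62, 2.77 and 3.06%. Because the long form gives more fragments per molecule, its estimated counts were not few: 3895, 3789 and 2836. The short form overlaps the 5′ part of the long one, so its share rests on how reads over the common part were divided. The libraries were made from poly-A RNA, and the long form has no poly-A tail. The part of this in the split was not tested, so the shares describe the libraries and not the cells. For Malat1, the unspliced transcript Malat1-201 of 6983 bases held 76.1, 74.3 and 80.7% of the TPM but 98.4% of the estimated counts, and the spliced Malat1-202 of 556 bases held 20.6, 21.7 and 16.9% of the TPM.

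**Figure D2:**
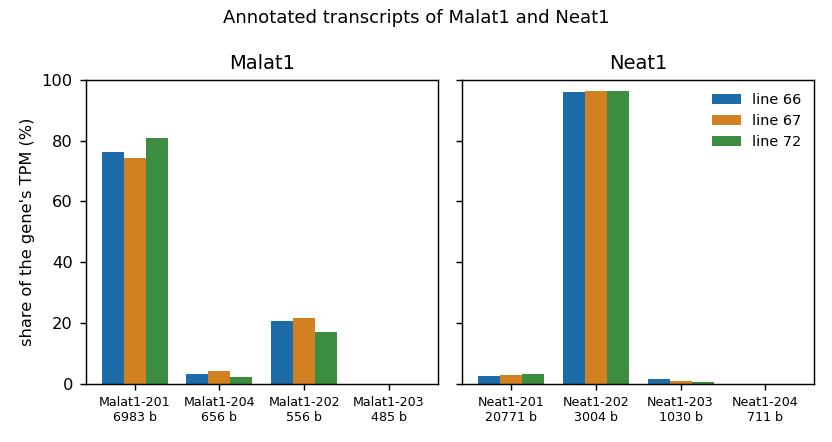
Share of each gene's TPM in its annotated transcripts (%), for Malat1 and Neat1, with the transcript length in bases under each name; bars are the 3 lines. Neat1-202 holds at least 95.8% of Neat1 in each line and Malat1-201 at least 74.3% of Malat1.

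The genes of proteins that work with these RNAs were expressed in each line. All 12 listed paraspeckle proteins reached 5 TPM, and 0 of the 12 differed over 2-fold between lines, which 2.76% of all autosomal genes at this level did, so that a count of 0 in such a list is not a result about it. They include Sfpq (549, 558 and 565 TPM) and Nono (441, 444 and 426 TPM), which coat Neat1. All 10 nuclear speckle proteins, among them Srrm1 (153, 159.8 and 163 TPM) and Srsf1 (478, 467 and 503 TPM), and all 8 genes of Malat1 processing, among them the methyltransferase Mettl16 (42.5, 30.1 and 36.2 TPM, a ratio of 1.40), also reached 5 TPM with 0 over 2-fold apart. The ratio of the highest to the lowest line was at most 1.23 among the 12 paraspeckle proteins (Hnrnph3), below that of Neat1 itself.

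The 6th in level was 2900097C17Rik, the mouse Norad gene, at chr2:156388065-156392979 on the minus strand. NORAD is known to bind Pumilio proteins in the cytoplasm, which recognise the 8 bases TGTANATA in RNA. Its level was 116, 120.1 and 136 TPM, or 124 ± 10.4 TPM (SD, n = 3), with 25110, 23773 and 27174 estimated counts, and its most abundant transcript is 1 exon of 4915 bases. TGTANATA occurred 11 times in that transcript (transcript strand), between positions 651 and 3526. The first, the eighth, the ninth and the eleventh copies are shown with 10 bases on each side, the motif in capitals. The eighth and the ninth overlap in these windows, since they start 9 bases apart.
Copy at bases 651 to 658: agaagtcctgTGTATATAatatgaaaaa
Copy at bases 2442 to 2449: tttgctatgcTGTATATAttgtacatac
Copy at bases 2451 to 2458: ctgtatatatTGTACATActggacaaac
Copy at bases 3526 to 3533: agtgagaaagTGTACATAacggattggt
The motif occurred at least once in the most abundant transcript of 345 of the 2475 lincRNA genes (13.9%) and of 12 of the 90, and 10 or more copies occurred in 1 of the 2475, 2900097C17Rik itself. Among the 1470 such transcripts of at least 1000 bases, it had 2.24 copies per 1000 bases. The only higher density was 3.56, in Gm7292, which shares 43.9% of the 31-base words of 2900097C17Rik and was listed at 0.0640, 0.0237 and 0 TPM.

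Host genes of snoRNAs ranged from 6.01 to 115 TPM among the 90. These genes are spliced, the snoRNAs are cut from their introns to guide chemical modification of ribosomal RNA, and the remaining exons are usually removed by nonsense-mediated decay. A snoRNA or the related scaRNA lay within the gene body and on the strand of 6 of the 90 genes. Snhg6, which holds Snord87, was measured at 114, 108 and 121 TPM. Epb41l4aos was measured at 72.3, 66.1 and 71.6 TPM. Snhg12, which holds Snora16a, Snora44, Snora61 and Snord99, was measured at 66.3, 68.3 and 64.7 TPM, with an SD of 1.81 TPM. These 3 genes differed between lines by at most 1.11-fold on the scale of TPM + 1. Snhg20 was the exception among them, at 39.7, 23.6 and 25.0 TPM. It lies on chromosome 11. In line 66 the log2 ratios of chromosome 11 genes centred on 0.32, after the median over all genes was taken off, and the log2 ratio of Snhg20 was 0.41 above that of its chromosome. The other members of this kind were lower, 2700038G22Rik (5.75, 7.15 and 5.31 TPM) and 2900076A07Rik (6.04, 5.85 and 6.13 TPM). Of 21 genes listed as snoRNA hosts 17 were in the files, 13 reached 5 TPM, and 1 of the 17 differed over 2-fold, Snhg9, from 14, 8 and 4 counts and with a mean of 4.52 TPM, below the level of the 13. Most abundant among them was Gas5, which the annotation does not class as lincRNA (568, 627 and 607 TPM). All 8 core snoRNP genes and all 8 genes of nonsense-mediated decay reached 5 TPM, with 0 over 2-fold apart. With 2.76% of all autosomal genes at this level over 2-fold apart, a count of 0 of 8 is not a result about either list.

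A microRNA gene lay within 5 of the 90 genes, 6 microRNA genes in all, of which 5 had an entry in the RefSeq microRNA table (GRCm38.p6). Those in Gm28653 are the muscle microRNAs miR-206 and miR-133b, which are induced by the myogenic factors, and the one in AL805899.1 is miR-31, which has been described to repress translation of Myf5 in satellite cells. Their mature forms are shown with the seed (bases 2 to 8) in capitals, and no 2 of these 3 share a seed.
mmu-miR-206-3p, chr1:20679055-20679076, plus strand: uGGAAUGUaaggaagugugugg
mmu-miR-133b-3p, chr1:20682834-20682855, plus strand: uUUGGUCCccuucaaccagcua
mmu-miR-31-5p, chr4:88910614-88910635, minus strand: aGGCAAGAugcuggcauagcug
A muscle lncRNA known as linc-MD1 is described from the locus of miR-206 and miR-133b, where Gm28653 lies. The mature microRNAs are too short for these libraries, so the values below belong to the host transcripts. Gm28653 (chr1:20669882-20684298) was measured at 17.7, 30.1 and 31.2 TPM, lowest in line 66, which was also lowest for Myog (168, 222 and 310 TPM), for Mymk, which drives fusion (67.6, 106 and 119 TPM), and for Myh3, the embryonic myosin (204, 262 and 339 TPM). The part of these genes in the level of Gm28653 was not tested. It has a 5276-base single-exon transcript that held 77.8, 81.9 and 83.0% of its TPM and a spliced 521-base transcript for the rest. AL805899.1 (chr4:88909855-88938521) ran the other way, at 32.3, 21.4 and 23.3 TPM, with line 66 highest. The remaining hosts were Snhg20 (Mir6516), A930003A15Rik (8.00, 8.57 and 11.1 TPM) and 2900076A07Rik (Mir1839).

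Members with a described role at or beside a neighbouring gene, or in muscle differentiation, covered a range of levels. Pvt1, which starts 52595 bases from Myc and is known to share its enhancers, was measured at 34.6, 34.3 and 34.1 TPM, from 1896, 1645 and 1651 estimated counts, although its 10 annotated transcripts divided that level widely and its most abundant one held 18.4%. Lockd, transcribed downstream of the cell cycle inhibitor Cdkn1b, was measured at 7.54, 10.4 and 11.04 TPM. It lies on chromosome 6, which stood higher as a whole in line 72. Dubr, also called Dum and described in myoblast differentiation, was measured at 5.75, 8.03 and 10.2 TPM. Of 17 genes listed for chromatin, stability or cis-acting roles, 15 were in the files and 5 reached 5 TPM, among them Tug1 (85.4, 65.8 and 78.9 TPM), which is annotated as antisense. Crnde (2.53, 8.13 and 5.67 TPM) was over 2-fold apart, as was Hotair, which had a mean of 1.85 TPM and so lies below the level at which the share over all genes was taken. Hottip, Pantr1 and Pantr2 were listed at 0 in every line. Of 10 names listed for muscle lncRNAs or micropeptides, some of them synonyms of one another, 3 were found as symbols, of which Mrln and Mymx reached 5 TPM. Mymx, which drives fusion with Mymk, was over 2-fold apart (11.5, 18.3 and 27.4 TPM, a ratio of 2.27) and lowest in line 66. Beside the 2.76% of all autosomal genes, a count of 1 is not a result about this list. Of 8 names listed as microRNA hosts 6 were found, of which Mir22hg reached 5 TPM (70.0, 44.3 and 45.9 TPM).

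The gene with the highest TPM of the 90 was not one of these well-known RNAs. Gm42047 (ENSMUSG00000110631.1, chr8:121833247-121841178, plus strand) was measured at 330.4, 488 and 485 TPM, or 434 ± 90.1 TPM (SD, n = 3). To see how much of each level rests on sequence of the gene itself, the distinct 31-base words of its listed transcripts were compared with those of every other listed gene on the same strand. This measure uses the annotation alone. It is not independent of the values that chose the genes, since those include shared reads divided between genes. For Gm42047, 27.7% of the words occurred in no other gene. Of the words of Gm47761 (124, 175 and 181 TPM), 59.1% lay also in Gm42047, and of those of Gm47939 (14.9, 21.01 and 22.8 TPM), 79.4%. All 3 were lowest in line 66, and their summed level was 469, 684 and 689 TPM, the largest of any sequence-linked group of the 90. Their separate levels depend on how shared reads were divided, which these files do not show.

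Shared sequence was common throughout the set. Of the 90 genes, 47 (52.2%) had at least 90% own words, against 9000 of the 9618 autosomal genes that reached 5 TPM (93.6%). Under 50% own words were found in 24 of the 90 (26.7%), against 246 of the 9618 (2.56%), and the median share of own words was 92.2% against 99.8%. Of the 9618, 9386 are protein-coding. The share over other lincRNA genes was not taken, so these values do not set the 90 apart from lincRNA genes at large. Counting words on either strand changed the 24 to 25. These 24 genes include 3 of the 10 with the highest levels, Gm42047, Gm47761 and AC158975.2 (68.9, 89.3 and 66.0 TPM), of whose words 89.2% lie also in Gm42427. A whole number of counts in every line, within 0.01, was found for 25 of the 47 genes with at least 90% own words and for 0 of the 24 with under 50%. Members that shared at least 30% of the words of the smaller gene formed 4 groups of 10 genes in all: the 3 around Gm42047, Gm20186 with Gm12840 (summed 198, 190.2 and 211 TPM), Gm47101 with AC132253.9 and Gm49083 (114, 146 and 118 TPM), and Gm42428 with Gm48275 (58.2, 101 and 76.7 TPM).

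The summed level of the shared-sequence genes differed more between lines than that of the others. The 24 genes with under 50% own words summed to 853, 1169 and 1095 TPM in lines 66, 67 and 72. The other 66 summed to 1839, 1854 and 1836 TPM, or 1843 ± 9.68 TPM (SD, n = 3). Opposite changes cancel in a sum, as in line 72, where Malat1 and Neat1 were lowest and other genes were highest. Gene by gene, the median coefficient of variation was 20.3% for the 24. It was 10.8% for the 19 genes with 50 to 90% own words and 13.5% for the 47 with at least 90%, so it did not fall steadily with own words. The 3 genes around Gm42047 made up most of the difference between lines 66 and 67 in the sum of the 24. Without the 24, the set held 0.184% ± 0.000968 of the library TPM in place of 0.288% ± 0.0171. Line 66 was lowest in the full sum and in the sum of the 24, whereas line 72 was lowest, by a small margin, in the sum of the other 66.

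**Figure D3:**
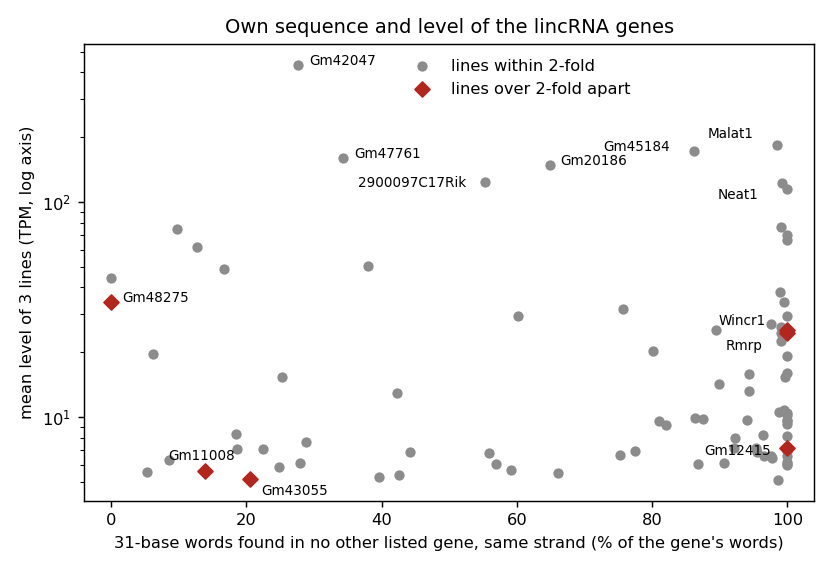
Share of a gene's 31-base words that occur in no other listed gene on the same strand (x axis, %) against the mean level of the 3 lines (y axis, TPM, log axis); each point is 1 of the 90 lincRNA genes, and red diamonds are the genes over 2-fold apart between lines. Of 90 genes, 47 lie at 90% or more and 24 under 50%, and 3 red diamonds lie on each of these sides.

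Between lines, 6 of the 90 genes (6.67%) differed by more than 2-fold between the highest and the lowest line, on the scale of TPM + 1. The same holds for 2.76% of the 9618 autosomal genes that reached 5 TPM and for 2.61% of the 9386 protein-coding ones. The median coefficient of variation was 14.3% for the 90 and 9.23% for the 9618, which have higher levels. With 1 library per line these values have no replicate check, and 6 genes are few: the count was 2 without line 66 (background 1.15%), 3 without line 67 (background 1.67%) and 4 without line 72 (background 1.45%). By own words, 3 of the 6 were among the 47 genes with at least 90% own words, against a background of 2.56% in genes with the same share of own words, and 3 were among the 24 under 50%, against a background of 6.50%. A gene that reaches 5 TPM only through its highest line has to differ between lines. Among the 84 genes that kept a mean of 5 TPM without their highest line, a filter added after seeing the data, 4 were over 2-fold apart (background 2.25%), and of the 20 of them with under 50% own words 1 was.

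The 3 with their own sequence all lie on chromosome 4, whose genes as a whole stayed close to the rest (median log2 ratios of 0.02, 0.03 and -0.05 in lines 66, 67 and 72). Rmrp (chr4:43492783-43493063, minus strand), the RNA subunit of the nuclease RNase MRP that trims ribosomal RNA, was measured at 39.0, 15.1 and 19.2 TPM, from 195, 69 and 90 counts. It was highest in line 66, at 2.48 times line 67 on the scale of TPM + 1. Rmrp is known to be made by RNA polymerase III without a poly-A tail, and these libraries were made from poly-A RNA. How much of its level reflects the carry-over of such RNA was not tested. The gene starts 163 bases from that of Ccdc107, which overlaps it on the other strand and was measured at 33.4, 29.4 and 27.8 TPM. The whole 281-base RNA is shown, with the 124 bases that also lie, reversed, in Ccdc107 transcripts in lower case and its other bases in capitals.
Rmrp-202: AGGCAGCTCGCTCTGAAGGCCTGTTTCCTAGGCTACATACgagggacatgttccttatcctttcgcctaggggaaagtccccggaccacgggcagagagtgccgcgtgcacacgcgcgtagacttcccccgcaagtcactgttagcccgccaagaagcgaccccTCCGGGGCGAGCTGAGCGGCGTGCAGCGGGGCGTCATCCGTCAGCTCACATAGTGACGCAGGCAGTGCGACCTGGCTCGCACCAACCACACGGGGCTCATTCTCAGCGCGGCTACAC
Wincr1 (chr4:89050308-89084614, plus strand), named as a Wnt-induced noncoding RNA, was measured at 37.6, 15.3 and 23.2 TPM, from 600, 222 and 356 counts, again highest in line 66. The miR-31 host AL805899.1, on the same chromosome, was also highest in line 66. The protein-coding gene start nearest to Wincr1, that of the methionine salvage enzyme Mtap, 86814 bases away, was at 120, 109 and 122 TPM. Gm12415 (chr4:84741475-84742291) was highest in line 72, at 6.16, 4.26 and 11.1 TPM, from 91, 57 and 152 counts.

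The other 3 share most of their sequence with other expressed genes. Gm48275 (chr10:50425044-50425330) had the largest difference in TPM between lines of the 6, at 6.60, 59.2 and 36.6 TPM, and 0% of its words were its own. All of them lie also in Gm42428, which varied less and was highest where Gm48275 was lowest (51.6, 41.7 and 40.1 TPM). The ratio between lines was 7.92 for Gm48275. Of the words of Gm48275, 66.1% lie also in Gm43305 (39.6, 57.7 and 39.0 TPM). Gm43055 (chr5:86728906-86817106) was measured at 0.127, 9.94 and 5.33 TPM, from 2.87, 202 and 113 estimated counts. Of its words, 71.3% lie in Ythdc1, a reader of methylated RNA that it overlaps on the same strand and that was measured at 59.5, 58.3 and 63.1 TPM. The boundary is shown for bases 185 to 304 of its transcript, with the bases absent from Ythdc1 in capitals.
Gm43055-201: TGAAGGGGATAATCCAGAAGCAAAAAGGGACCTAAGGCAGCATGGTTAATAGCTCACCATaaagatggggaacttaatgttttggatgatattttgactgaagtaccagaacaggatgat
Gm11008, at 9.41, 5.71 and 1.68 TPM, shares 76.8% of its words with the zinc finger gene Zfp968 (5.08, 5.76 and 5.05 TPM) and 76.3% with Zfp966 (13.1, 12.3 and 14.5 TPM). It shares 68.9% with each of Gm14440, which was highest where Gm11008 was lowest (4.10, 5.29 and 9.49 TPM), and Gm14288, which was lowest in the same line as Gm11008 (5.78, 6.05 and 3.02 TPM). The mean of Gm43055 without line 67 was 2.73 TPM and that of Gm11008 without line 66 was 3.70 TPM, so each passed the selection through the line in which it was high.

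**Figure D4:**
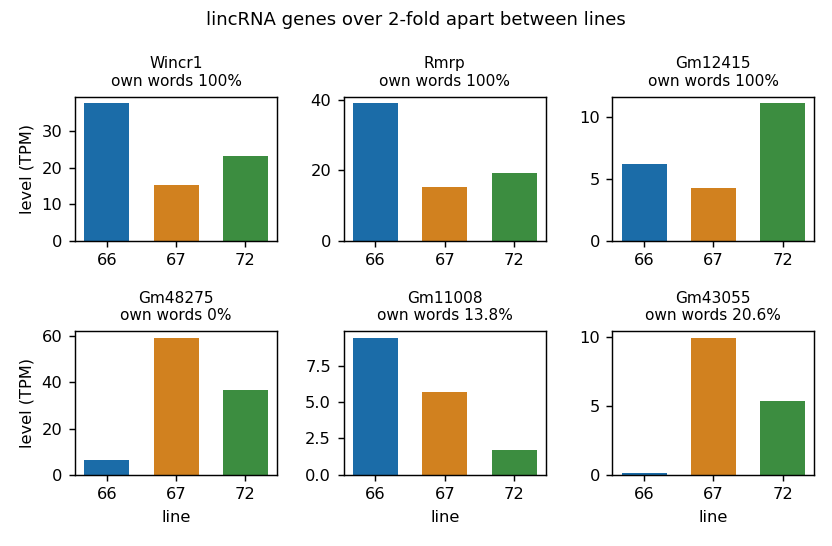
Level in each line (TPM, bars start at 0) of the 6 lincRNA genes over 2-fold apart between lines, with the share of their 31-base words that occur in no other gene on the same strand. The upper row has 100% own words and the lower row 0, 13.8 and 20.6%.

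Gene by gene, 22 of the 90 were over 1.5-fold apart, against 10.8% of all autosomal genes that reached 5 TPM, and the median ratio of the highest to the lowest line was 1.29 against 1.18. The direction was mixed. For the 90 genes, each line was set against the average of the remaining lines, giving medians on the log2 scale of -0.09 (line 66), 0.02 (line 67) and 0.07 (line 72). The same medians over all autosomal genes that reached 5 TPM were -0.05, -0.02 and 0.06. With TMM or DESeq2 scaling of counts the highest median passed from line 72 to line 67 (0.03 and 0.04, against 0.0053 and 0.01 in line 72). Chromosomes 10 and 11 stood higher as a whole in line 66, by medians of 0.28 and 0.32 on the log2 scale once all genes were centred. On the same centred scale, log2 ratios in line 66 relative to the chromosome were -0.0024 for A730063M14Rik, -0.34 for Gm47101, -0.75 for Gm47761, -0.75 for Gm47939 and -2.87 for Gm48275, the 5 members on chromosome 10. The last 4 all have under 50% own words. Of the 3 on chromosome 11, Snhg20 was 0.41 above its chromosome, C030037D09Rik 0.13 above, and Gm12319 at -0.16. Chromosome 6 stood lower as a whole in line 66 (-0.10) and higher in line 72 (0.15). In line 72, log2 ratios relative to that chromosome were -0.09 for Gm20186, 0.04 for 1810058I24Rik and 0.07 for Lockd. Differentiation markers, Col1a2 and the mitochondrial share of TPM (8.01, 9.23 and 6.94%) also differed between the lines, and their part in these values was not tested.

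Some of the 90 genes start beside an expressed protein-coding gene. The nearest protein-coding start was within 1000 bases for 14 genes and over 100000 bases away for 19, with a median of 29516 bases. In 11 of the 14 the pair was divergent, that is, the genes run apart from close starts, and all 11 coding partners had a mean of at least 5 TPM. No such count was taken over the other lincRNA genes or over all coding genes. These counts are therefore not a result about the 90 as a set. The coding gene was above the lincRNA, by mean TPM, in 6 of the 11 pairs. C030037D09Rik, at 7.54, 5.16 and 5.75 TPM, starts 132 bases from Msi2, an RNA-binding protein of stem cells, at 178, 149.8 and 136 TPM. Both lie on chromosome 11, which stood higher as a whole in line 66. Gm17501, at 23.4, 24.9 and 25.8 TPM, starts 331 bases from Ccn1, a secreted matrix protein, at 233, 197 and 226 TPM. The most abundant lincRNA of these pairs was Gm20186 (147, 143 and 158 TPM), 372 bases from Lsm8, a core protein of U6 snRNA particles (101, 113 and 145 TPM). These 2 genes lie on chromosome 6, which stood higher as a whole in line 72. Gm14230 was at 11.5, 14.9 and 21.5 TPM, 115 bases from Tgif2, a transcriptional repressor, at 12.9, 13.4 and 15.3 TPM. By position, 6 of the 90 overlap a protein-coding gene on the same strand, among them Gm42047 with Gm20388, and 6 overlap one on the opposite strand.

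**Figure D5:**
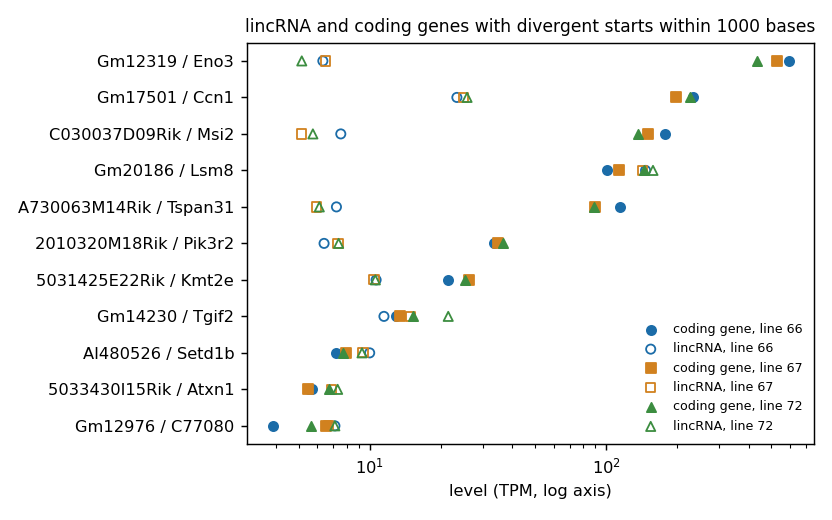
Level (TPM, log axis) of the 11 lincRNA genes (open symbols) and of the protein-coding genes with a divergent start within 1000 bases (filled symbols); symbols and colours give the 3 lines. The coding genes span from 3.88 TPM (C77080, line 66) to 591 TPM (Eno3, line 66), and the lincRNAs from 5.16 TPM to 158 TPM.

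The most abundant transcript held less than 50% of the TPM in 9 of the 90 genes, from 18.4% in Pvt1 to 46.9% in E430024I08Rik (11.2, 7.20 and 10.4 TPM). The others were Dubr, 1300002E11Rik (16.3, 16.7 and 14.3 TPM), 2810429I04Rik (12.4, 14.3 and 15.9 TPM), 5031425E22Rik (10.6, 10.4 and 10.6 TPM), AI480526 (9.99, 9.36 and 9.27 TPM), 2900076A07Rik and 1700086O06Rik. Near the selection limit, the lowest genes inside it were Gm43994 (6.06, 3.98 and 5.79 TPM), Gm43055, and 1700086O06Rik (5.16, 4.42 and 5.68 TPM). Just outside lay Gm48843 (5.24, 4.53 and 5.12 TPM), 1110019D14Rik (4.37, 4.11 and 6.10 TPM) and Gm47486 (5.21, 4.73 and 4.62 TPM). The remaining genes of the 10 with the highest levels were Gm45184 (165, 195 and 160.1 TPM, 86.2% own words) and 1810058I24Rik (69.6, 74.0 and 86.0 TPM, 99.1% own words). The latter is reported to encode a mitochondrial micropeptide.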

How the data were processed

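RNA from 3 myoblast lines was sequenced after poly-A enrichment with a stranded kit. The submitters' processing notes name bcl2fastq 2.20, fastp 0.20 and kallisto 0.46.1 and the build GRCm39. The authors deposited an estimated count per transcript, for which a read that fits several transcripts is divided between them, and a TPM value, which is that count per effective transcript length, scaled within each library.

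Transcripts were matched by identifier to GENCODE M21 (GRCm38), whose coordinates are given because the files hold none. Of 121798 transcripts 1112 had no match. TPM and estimated counts were summed per gene. The genes, the lists and the alternatives were chosen with earlier results of these data known. Named are the 10 most abundant genes, those over 2-fold apart, those of role lists, those at the selection limit, and those whose leading transcript holds under 50%. Msi2, Ccn1, Lsm8 and Tgif2 pairs, and list genes given as examples, were chosen after their values were seen. No test was run, since the lines are 1 group. Ratios used a pseudocount of 1. Scripts were tested on simulated data. For scaling, estimated counts were rounded. The alternatives were CPM, edgeR 4.0.16 (TMM), DESeq2 1.42.0 (size factors), other thresholds and pseudocounts, and leaving out each line, and those on own words were added after seeing the data. The tools were Python 3.11.15, pandas 2.3.3, numpy 2.4.6, matplotlib 3.10.9 and R 4.3.3.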

Additional observations from a re-analysis of the deposited data

How the results depend on the processing

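No paired analysis was possible because the 3 lines form 1 group. The number of genes that met the rule was 44 at a minimum of 10 TPM, 173 at 2 TPM and 70 at 5 CPM, of which 53 were among the 90, and between 89 and 90 with 1 line left out. The number over 2-fold apart was 6 with a pseudocount of 0.1 and with DESeq2's size factors, 4 with TMM, 22 at a limit of 1.5-fold (background 10.8%), between 2 and 4 with 1 line left out, 3 without the genes with under 50% own words, and 4 among the 84 genes that kept 5 TPM without their highest line. The share of the set was 0.431% of estimated counts, 0.258% of TPM without Malat1 and Neat1, 0.184% without the genes with under 50% own words, and between 0.281 and 0.298% with 1 line left out. The median log2 ratios in lines 66, 67 and 72 were -0.06, 0.03 and 0.0053 with TMM, -0.07, 0.04 and 0.01 with DESeq2, and -0.03, 0.01 and 0.0034 relative to the chromosome. All kept their sign, but line 67 in place of line 72 was then highest. In CPM, where long genes count for more, 14 of 22 named genes changed rank by more than the spread of their ranks between lines. Among them, Gm48275 moved from rank 19 to 72, Rmrp from 29 to 77, Snhg6 from 8 to 22 and Neat1 from 7 to 5. The leading transcript's share moved in 8 of 11 genes when taken of counts. Levels with 1 library a line rest on counting and on how shared reads were divided. The counting error was not computed, and the error of the division cannot be measured from these files.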
